A study of Fagopyrum tataricum with 12 samples.

Results

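Major latex-like proteins (MLPs) are small plant proteins named after the latex of the opium poppy. In Tartary buckwheat (Fagopyrum tataricum), 30 of 26750 genes in the deposited table were described as an MLP-like protein. The 23 genes studied here are those of the 30 with at least 10 counted reads in at least 3 libraries. The other 7 held 240 reads in all 12 libraries together and never more than 26 in a single library. Around the minimum, MLP28 (evm.TU.Ft1.574) was included at a mean of 0.167 CPM (read counts scaled to library size), while MLP423 (evm.TU.Ft4.183), at 0.176 CPM, was not. The count minimum is a measured value, so the presence of a gene in the set is not a finding. A pair of them, MLP34 with the identifier evm.TU.Ft6.1095 as well as MLP31 with evm.TU.Ft6.1121, had been picked out for a fall after 2 h. Their values for that comparison are given as a description, without a test.

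RNA was sequenced from leaf and stem of hydroponic seedlings of cultivar Dingku1 at the 2-leaf stage. Control seedlings stood in Hoagland's nutrient solution (0 h), and treated ones in 20% PEG-6000 for 2, 4 or 8 h. This polymer makes water less available to roots. Each of the 4 groups held 3 libraries. The study concerns drought and flavonoid synthesis, and the comparisons here ask how the transcripts of this protein family differed from the control at each time and from each time to the next.

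MLPs belong to the Bet v 1 superfamily, whose members fold around a hydrophobic cavity that can hold a small ligand. The superfamily also includes the abscisic acid (ABA) receptors and the PR-10 proteins of pathogen defence. In cucurbits, MLPs carry hydrophobic pollutants in the xylem sap. Arabidopsis MLP43 is known as a positive regulator of ABA responses and drought tolerance, and cotton MLP28 takes part in defence against Verticillium. No function was assigned to single buckwheat proteins here.

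The names came with the deposited table and are those of Arabidopsis proteins, and the same name recurs. Of the 23 genes, 8 were named MLP28, 6 MLP31, 6 MLP34, 2 MLP423 and 1 MLP43. Their coding lengths, as the deposited FPKM values imply them, ran from 441 to 468 bases (median 459), against a median of 1062 for all genes. Identifiers place 9 genes on chromosome 1, 8 on chromosome 4 and 6 on chromosome 6, and many numbers lie close together, such as Ft1.2503 to Ft1.2510. Positions, sequences and the genome build were not used here, and whether reads were split between near-identical copies could not be checked. The deposited ontology terms gave "defense response" for all 30 described genes.

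Library totals lay between 30468104 and 37395814 counted reads. Whether replicates are separate plants is not stated in the labels, so p-values measure the spread between these libraries, which may be technical. No untreated library was taken at 2, 4 or 8 h, so time in PEG and time of day cannot be told apart. The 22 leaf markers (chlorophyll-binding proteins and Rubisco genes) summed to 73220 to 79094 CPM (after TMM scaling, as everywhere here) in the control libraries and to 8067 to 8550 CPM at 8 h. The summed level of 16 root markers stayed between 1.85 and 4.84 CPM in all libraries, and 15 of them averaged under 1 CPM. Phloem markers (19 genes) went from 417 to 460 CPM in the control to 558 to 582 CPM at 8 h, and epidermis markers (8 genes) from 180 to 198 CPM to 1058 to 1173 CPM. Leaf sums lay at 39783 to 42595 CPM at 2 h and 29918 to 30086 CPM at 4 h, and epidermis sums at 406 to 438 and 628 to 642 CPM. Phloem sums overlapped the control at 2 h (402 to 429 CPM) and lay at 498 to 534 CPM at 4 h. These sums changed over the same times as the genes described here, and their part in the differences was not tested. In such bulk tissue, fewer cells of a type and less RNA per cell cannot be told apart.

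The 23 genes together were abundant and dominated by a few members. In the control they held 0.334% ± 0.00679 (SD, n = 3) of all counted reads, against 0.249% ± 0.0107 at 2 h, 0.294% ± 0.00263 at 4 h and 0.592% ± 0.0120 at 8 h. The sums of deposited FPKM (reads scaled to coding length and library size, which allows genes to be compared) were 7398, 7304.5 and 7107 in the control libraries, 5531, 5563 and 5140 at 2 h, 6370, 6458 and 6358 at 4 h, and 12803, 13097 and 12587 at 8 h. The libraries of each group did not overlap with those of any other group: the sum was lowest at 2 h and highest at 8 h. The 8 h increase of the sum lay mainly in MLP423 (evm.TU.Ft6.10) and MLP28 (evm.TU.Ft1.2505). Both genes together held 43.0% ± 0.165 of the summed FPKM in the control, 49.9% ± 0.50 at 2 h, 58.0% ± 0.465 at 4 h and 66.0% ± 1.05 at 8 h. Without them the sum of FPKM was 4219, 4154.5 and 4066 in the control libraries, 2799, 2794 and 2549.9 at 2 h, 2659.5, 2693 and 2704 at 4 h, and 4501.5, 4333 and 4265 at 8 h, each 8 h library then lying above each control. On the CPM scale the order of these groups was reversed: without both genes the sum stood at 1926 ± 26.8 in the control, 1240 ± 63.8 at 2 h, 1302 ± 8.29 at 4 h and 1825 ± 65.9 at 8 h, and each 8 h library lay below each control. Whether the other 21 genes together were above or below the control at 8 h thus depended on the scaling.

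**Figure D1:**
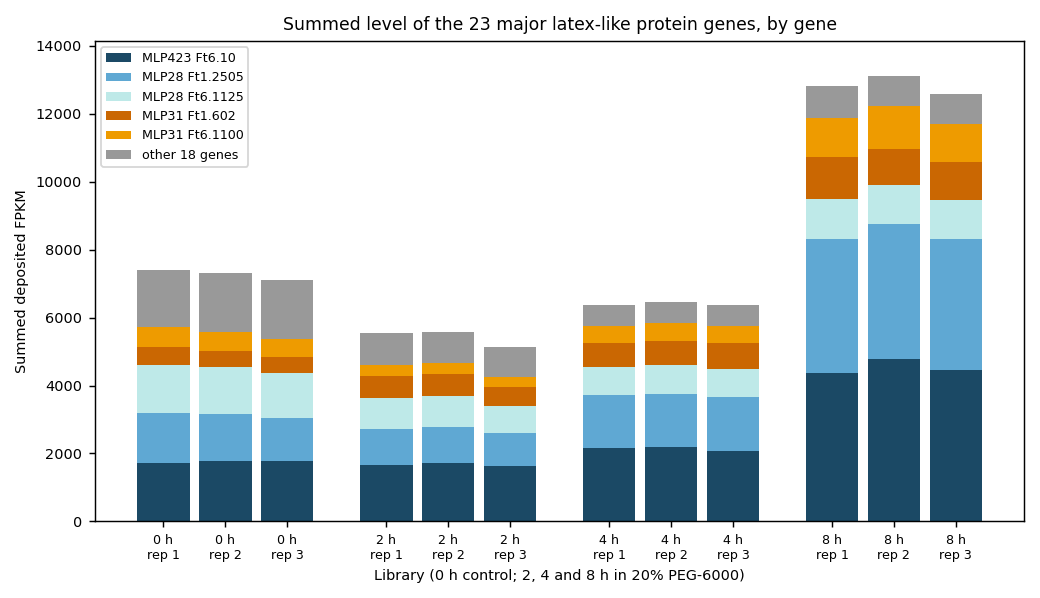
Stacked bars of deposited FPKM in each of the 12 libraries, for the 5 genes with the highest mean level and the other 18 together. The bars average 7269.9 in the control, are lower at 2 and 4 h and reach 13097 at 8 h, where MLP423 Ft6.10 and MLP28 Ft1.2505 take the widest segments.

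Per kilobase, MLP423 (evm.TU.Ft6.10) led the control libraries with 1758 ± 24.9 FPKM (n = 3). MLP28 (evm.TU.Ft6.1125) followed with 1385 ± 53.2 FPKM and MLP28 (evm.TU.Ft1.2505) with 1365 ± 86.7 FPKM, a pair that differed by less than the spread between replicates. MLP31 (evm.TU.Ft6.1100) at 556 ± 36.1, MLP31 (evm.TU.Ft1.602) at 496.5 ± 17.5, MLP423 (evm.TU.Ft4.954) at 479 ± 49.4 and MLP34 (evm.TU.Ft6.1095) at 455 ± 31.9 FPKM came next. The first of these lay above all libraries of the second, and the libraries of the last 3 overlapped. The remaining 16 genes ranged from 318 ± 21.4 FPKM for MLP31 (evm.TU.Ft1.2510) down to 1.09 ± 0.721 FPKM for MLP28 (evm.TU.Ft1.574). At 8 h the order had shifted: MLP34 (evm.TU.Ft6.1095) stood at 90.1 ± 5.44 FPKM, behind MLP31 (evm.TU.Ft6.1121) at 217 ± 16.7 FPKM and MLP28 (evm.TU.Ft4.3922) at 140.4 ± 10.48 FPKM, which had 98.9 ± 18.6 and 32.5 ± 6.67 FPKM in the control.

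After 2 h in PEG most genes of the family were lower than in the control. By edgeR's quasi-likelihood test at a false discovery rate of 0.05, 17 of 23 genes were lower (73.9%, beside 31.7% of all 22063 genes tested) and 4 were higher (17.4%, beside 31.6%). Leaving out the pair picked for its fall, 15 of 21 were lower. The median log2 fold change was -1.06 for the 23 genes and -0.89 for those 21, beside 0.00 for all genes. At least 2-fold falls numbered 12 of 23, or 10 of 21 (8.76% of all genes). MLP28 (evm.TU.Ft1.574) and MLP34 (evm.TU.Ft4.2609) reached the count minimum through the control group and 1 other library each, so a high control level was part of how they were chosen. Both are among the 17 lower genes and the 12 at least 2-fold lower. Among the 4 called higher, MLP31 (evm.TU.Ft1.602) alone was called under every alternative other than a 2-fold minimum. The rises of MLP423 (evm.TU.Ft4.954, log2 0.14), MLP28 (evm.TU.Ft4.2488, 0.28) and MLP34 (evm.TU.Ft1.2503, 0.56) overlapped the control libraries and were not called by DESeq2 (adjusted p = 0.153, 0.0792 and 0.300). Their calls were lost in turn without control replicate 1 or 2 h replicate 2 (0.06 and 0.12), without control replicate 2 or 3 or 2 h replicate 1 or 2 (0.25, 0.20, 0.15 and 0.30), and without control replicate 1 or 2 or 2 h replicate 1 or 3 (0.18, 0.56, 0.49 and 0.52).

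**Figure D2:**
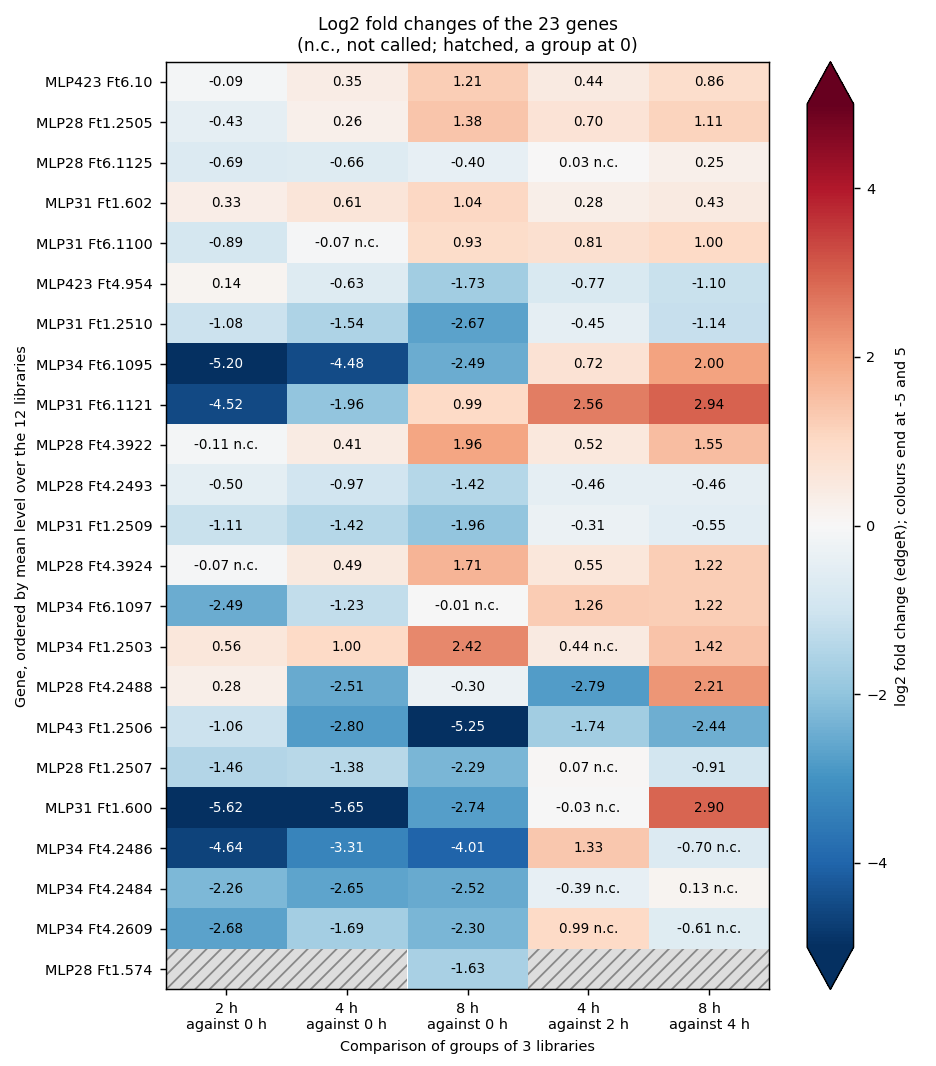
Log2 fold changes of the 23 genes (rows, by mean level) in 5 comparisons of 3 against 3 libraries, with cells not passing the false discovery rate of 0.05 marked n.c. and comparisons with a group at 0 hatched. The 2 h column is mostly blue, down to -5.62 for MLP31 Ft1.600, and the column of 8 h against 4 h is mostly red, up to 2.94 for MLP31 Ft6.1121.

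After 4 h the split was similar, with 16 of 23 genes lower than the control (69.6%, beside 37.7% of all genes) and 6 higher (26.1%, beside 35.1%). Without the picked pair, 14 of 21 were lower. The median log2 fold change was -1.38 (-1.23 without the pair), beside -0.04 for all genes. At least 2-fold lower were 13, or 11 of 21 without the pair (14.1% of all genes), and none was as much higher (12.9%). After 8 h, 14 genes were lower (60.9%, beside 34.5%) and 8 higher (34.8%, beside 36.4%), with a median of -1.42 beside 0.03. Without the pair these were 13 and 7 of 21, with the same median. The 3 comparisons share the control libraries. The lower genes at 4 h and 8 h also include MLP28 (evm.TU.Ft1.574) and MLP34 (evm.TU.Ft4.2609), which reached the count minimum mainly through those libraries. Counts and medians without them were not made. At 8 h, 12 genes were at least 2-fold lower, or 11 of 21 without the pair (14.8% of all genes). Of the 8 genes higher at 8 h, 6 were at least 2-fold higher (12.2% of all genes), and none had been at 2 h (9.83%). MLP31 (evm.TU.Ft6.1100) was the gene without a call at 4 h (log2 -0.07, SE 0.0413). MLP34 (evm.TU.Ft6.1097) was the gene without a call at 8 h (log2 -0.01, SE 0.0982).

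From 2 h to 4 h, 10 of 23 genes rose (43.5%, beside 26.3%) and 6 fell (26.1%, beside 26.9%). The rises include the picked pair, whose low 2 h values were used to choose it, and without it 8 of 21 rose (38.1%). From 4 h to 8 h, 14 rose (60.9%, beside 33.8%) and 6 fell (26.1%, beside 31.7%). The median log2 fold change of this last step was 0.86 for the 23 genes and 0.43 without the pair, with 0.04 over all genes. Without the pair, 12 of 21 rose in it (57.1%). Changes of at least 2-fold were 3 rises and 2 falls in the earlier step (4.15% and 4.39% of all genes) and 11 rises and 3 falls in the later one (7.62% and 9.97%). Without the pair there were 2 such rises in the earlier step and 9 in the later one, with the same falls. The group mean was highest in the control for 13 genes, at 8 h for 8 and at 2 h for 2. Among the 13 are MLP28 (evm.TU.Ft1.574) and MLP34 (evm.TU.Ft4.2609), which reached the count minimum mainly through the control. It was lowest at 2 h for 12 genes, at 8 h for 6, at 4 h for 3 and in the control for 2. The 12 include the picked pair and evm.TU.Ft1.574, which had no read at 2 h or 4 h and was counted at 2 h. Such counts were not made over all genes, so they are a description and not a trait of the family.

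MLP34 (evm.TU.Ft6.1095) showed a deep fall and a partial return. Its CPM values were 229, 212 and 201.5 in the control libraries, 6.66, 4.99 and 5.78 at 2 h, 9.44, 9.45 and 9.86 at 4 h, and 41.2, 37.2 and 36.2 at 8 h. No group overlapped with another, and every treated library lay under every control. At 2 h the level was 36.8-fold lower. At 4 h it was still 22.4-fold lower (log2 -4.48) and at 8 h 5.61-fold lower (log2 -2.49), given without a test because the control libraries are those of the comparison the gene was picked on. The rise from 4 h to 8 h was 2.00 on the log2 scale (SE 0.0701, adjusted p = 4.53e-25).

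MLP31 (evm.TU.Ft6.1121) fell as early but ended above the control. It stood at 54.0, 47.4 and 37.2 CPM in the control libraries, 2.06, 1.44 and 2.52 CPM at 2 h, 14.4, 10.45 and 10.8 CPM at 4 h, and 100.1, 85.5 and 88.8 CPM at 8 h. The groups were again fully apart, now with 8 h on top. The level was 22.9-fold lower at 2 h, 3.88-fold lower at 4 h (log2 -1.96) and 1.98-fold higher at 8 h (log2 0.99), likewise without a test. From 2 h to 4 h the log2 difference was 2.56, a step from the libraries it was picked on. The rise from 4 h to 8 h, which uses neither of those groups, was 2.94 on the log2 scale (SE 0.1003, adjusted p = 1.73e-25).

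**Figure D3:**
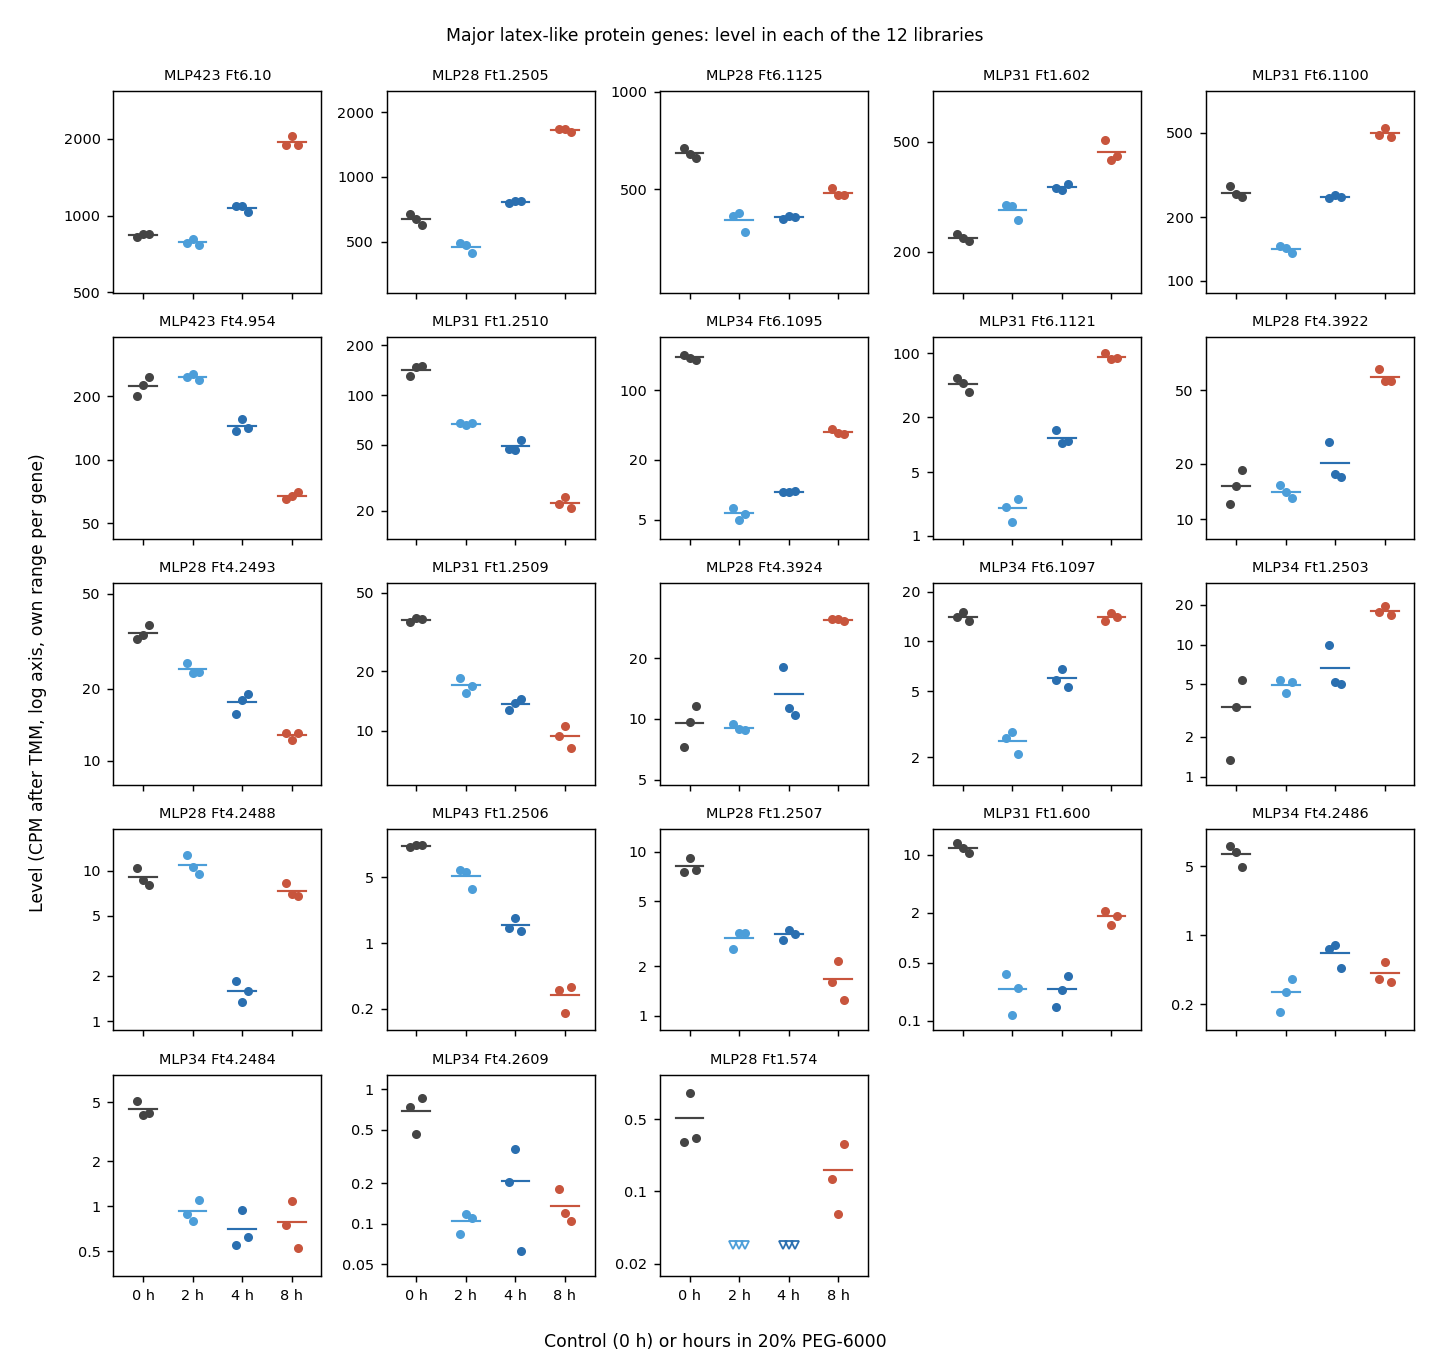
Level of each of the 23 genes in the 12 libraries, in CPM on a log axis with its own range for each gene. Points are libraries (replicates 1 to 3 from left to right), bars are group means, and open triangles mark libraries without a read. MLP34 Ft6.1095 and MLP31 Ft6.1121 drop at 2 h and climb again, while MLP43 Ft1.2506 declines at each time.

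Genes outside the family with the most similar course were sought by the root mean square difference of the 3 log2 fold changes against the control, among 10570 described genes with a mean of at least 10 CPM. For MLP34 (evm.TU.Ft6.1095) the nearest was CHLN (evm.TU.Ft8.4768), a nicotianamine synthase, at a difference of 1.15. ABCB15 (evm.TU.Ft6.1330), an ABC transporter, the ammonium transporter AMT1-3 (evm.TU.Ft2.4506), the auxin-binding protein gene ABP19A (evm.TU.Ft6.3408) and the polygalacturonase inhibitor PGIP (evm.TU.Ft5.2609) followed at 1.31, 1.31, 1.40 and 1.45. None was close: a difference of 1 is 2-fold, and CHLN stayed at 1.70 CPM at 8 h after 35.6 CPM in the control. For MLP31 (evm.TU.Ft6.1121) the nearest was PGIP at 1.36, a gene with 120 CPM in the control, 7.26 at 2 h, 8.44 at 4 h and 93.8 at 8 h. The trypsin inhibitor gene evm.TU.Ft2.121, FLA2 (evm.TU.Ft8.288), a cell wall arabinogalactan protein, GASA6 (evm.TU.Ft1.2318), a gibberellin-regulated peptide, and PGIP1 (evm.TU.Ft5.2610) came next at 1.53, 1.58, 1.66 and 1.72.

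MLP423 (evm.TU.Ft6.10) and MLP28 (evm.TU.Ft1.2505), the most abundant at 8 h, were 1.07-fold and 1.35-fold lower at 2 h and more than 2-fold above the control at 8 h. MLP423 (evm.TU.Ft6.10) had 822, 845 and 847 CPM in the control libraries, 783, 810 and 766 CPM at 2 h, 1086, 1094 and 1030.5 CPM at 4 h, and 1888, 2052 and 1891 CPM at 8 h. Every 4 h and 8 h library lay above all controls, and at 8 h the gene was 2.32-fold higher (log2 1.21, SE 0.0350, adjusted p = 2.24e-28). Its dip at 2 h was small (log2 -0.09, adjusted p = 0.0201), with a call that was lost without control replicate 2 (-0.09), without 2 h replicate 3 (-0.07), with library-size scaling (-0.07) and with FPKM in limma (-0.07). MLP28 (evm.TU.Ft1.2505) had 675, 639 and 600 CPM in the control libraries, 494, 480 and 444.5 CPM at 2 h, 755, 771.5 and 772 CPM at 4 h, and 1674, 1673 and 1618.5 CPM at 8 h. All groups were apart, in the order 2 h, control, 4 h and 8 h. The log2 fold change at 2 h was -0.43 (SE 0.0378, adjusted p = 7.05e-13), and the level at 8 h was 2.59-fold that of the control (adjusted p = 5.71e-29).

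MLP31 (evm.TU.Ft6.1100) was also lower than the control at 2 h and higher at 8 h. Its values were 279, 256 and 249 CPM in the control libraries, 146, 143 and 135 CPM at 2 h, 245, 253 and 248 CPM at 4 h, and 489, 526 and 478 CPM at 8 h. The 4 h libraries overlapped the controls, while the other groups were apart from them. The gene was 1.85-fold lower at 2 h (log2 -0.89, SE 0.0421, adjusted p = 7.29e-21) and 1.90-fold higher at 8 h (adjusted p = 3.52e-22). The small difference at 4 h passed the threshold without control replicate 3 (log2 -0.11, adjusted p = 0.0263) and with library-size scaling (-0.14). It also passed by limma on FPKM (-0.14 with 1 or 0.1 added, adjusted p = 0.0165 and 0.0174).

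MLP31 (evm.TU.Ft1.602) was higher at every time. It had 232, 224 and 218 CPM in the control libraries, 294, 292.5 and 259 CPM at 2 h, 339, 335 and 352.5 CPM at 4 h, and 509.7, 430.5 and 444 CPM at 8 h. Each group lay above all libraries of the group before. The log2 fold changes against the control were 0.33 (SE 0.0471), 0.61 (SE 0.0471) and 1.04 (SE 0.0471), the last with adjusted p = 8.26e-22.

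MLP28 (evm.TU.Ft6.1125), second per kilobase in the control, fell and did not recover fully. Its values were 670, 645 and 627 CPM in the control libraries, 415, 422 and 369.5 CPM at 2 h, 404.5, 415 and 412 CPM at 4 h, and 506, 482 and 479 CPM at 8 h. All treated libraries lay under all controls, and the 2 h and 4 h libraries overlapped. The log2 fold changes were -0.69 (SE 0.0392, adjusted p = 2.30e-18), -0.66 and -0.40 (SE 0.0390, adjusted p = 7.19e-12) at the 3 times, and 0.25 from 4 h to 8 h (adjusted p = 5.60e-07).

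Less abundant genes also rose late. MLP28 (evm.TU.Ft4.3922) had 12.1, 15.1 and 18.5 CPM in the control libraries, 15.3, 14.0 and 13.1 CPM at 2 h, 26.1, 17.6 and 16.9 CPM at 4 h, and 64.8, 56.4 and 56.2 CPM at 8 h. The 8 h libraries alone were apart from the controls, at 3.89-fold (log2 1.96, SE 0.106, adjusted p = 2.55e-19). MLP28 (evm.TU.Ft4.3924) was 3.26-fold and MLP34 (evm.TU.Ft1.2503) 5.34-fold higher at 8 h (adjusted p = 2.09e-15 and 7.43e-13). These 3 genes varied together between replicates in the control and at 4 h. At 2 h and 8 h evm.TU.Ft1.2503 had a replicate order unlike that of the others. In the control, replicate 1 was lowest and replicate 3 highest for each of them (1.34, 3.37 and 5.39 CPM for evm.TU.Ft1.2503, and 7.30, 9.61 and 11.6 CPM for evm.TU.Ft4.3924). At 4 h, replicate 1 stood apart for each (9.84, 5.21 and 5.03 CPM, and 18.1, 11.3 and 10.4 CPM). The coefficient of variation of evm.TU.Ft4.3924 at 4 h was 31.4%, where 95% of the 12778 genes with at least 10 CPM were under 10.99%. Without that library the rises at 4 h of evm.TU.Ft4.3922 (log2 0.41, then 0.19) and evm.TU.Ft4.3924 (0.49, then 0.20) were no longer called, nor was the step of the latter from 2 h to 4 h (0.55, then 0.26). DESeq2 did not call the first either (adjusted p = 0.0541), nor did limma on FPKM with 1 or 0.1 added (adjusted p = 0.0570 and 0.0604). Limma with 0.1 added also lost the step of evm.TU.Ft4.3924 from 2 h to 4 h (adjusted p = 0.0514).

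A further set of genes declined with time in PEG. MLP31 (evm.TU.Ft1.2510) had 131, 147 and 149.9 CPM in the control libraries, 68.0, 66.0 and 68.0 CPM at 2 h, 47.6, 46.9 and 53.4 CPM at 4 h, and 22.1, 24.4 and 20.9 CPM at 8 h. All groups were apart and in the order of time, and at 8 h the level was 6.38-fold lower (log2 -2.67, SE 0.0575, adjusted p = 1.16e-32). MLP31 (evm.TU.Ft1.2509) and MLP28 (evm.TU.Ft4.2493) declined in the same order, to 3.90-fold and 2.68-fold under the control (adjusted p = 3.86e-23 and 9.50e-20). MLP43 (evm.TU.Ft1.2506), annotated after the Arabidopsis gene with a role in ABA responses, went from 10.8 ± 0.308 CPM to 5.19 ± 1.24, 1.55 ± 0.259 and 0.277 ± 0.0849 CPM (n = 3 each), 37.9-fold lower at 8 h (log2 -5.25, SE 0.225, adjusted p = 1.46e-22). MLP28 (evm.TU.Ft1.2507) went from 8.15 ± 0.902 to 1.68 ± 0.460 CPM at 8 h, 4.89-fold lower (adjusted p = 5.00e-15), with no call between 2 h and 4 h (log2 0.07).

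MLP423 (evm.TU.Ft4.954) was unlike the other MLP423 gene in direction. It had 199, 225 and 247 CPM in the control libraries, 247, 254 and 238 CPM at 2 h, 136, 156 and 142 CPM at 4 h, and 65.1, 67.2 and 70.0 CPM at 8 h. The 2 h libraries overlapped the controls, and those of 4 h and 8 h lay below. The level at 8 h was 3.32-fold lower (log2 -1.73, SE 0.0542, adjusted p = 3.70e-27), where MLP423 (evm.TU.Ft6.10) was 2.32-fold higher. A direct test of the difference between these genes was not run.

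The remaining genes were of low level, under 15 CPM in every group mean. MLP34 (evm.TU.Ft4.2486) went from 6.65 ± 1.54 to 0.264 ± 0.0963 CPM at 2 h and stood at 0.415 ± 0.110 CPM at 8 h, 16.1-fold lower (adjusted p = 2.42e-16). MLP34 (evm.TU.Ft4.2484) and MLP34 (evm.TU.Ft4.2609) went from 4.47 ± 0.550 to 0.930 ± 0.161 CPM and from 0.685 ± 0.201 to 0.104 ± 0.0179 CPM at 2 h, and neither step after 2 h was called for them. The latter reached the count minimum mainly through the control, so its fall is a description. MLP31 (evm.TU.Ft1.600) resembled MLP34 (evm.TU.Ft6.1095), with 12.2 ± 1.54 CPM in the control, 0.243 ± 0.122 at 2 h, 0.242 ± 0.0990 at 4 h and 1.81 ± 0.347 CPM at 8 h. Its fall at 2 h was 49.2-fold (log2 -5.62, SE 0.242, adjusted p = 3.13e-22) and its rise from 4 h to 8 h was 2.90 on the log2 scale (SE 0.303, adjusted p = 8.57e-11). MLP34 (evm.TU.Ft6.1097) fell 5.62-fold at 2 h and stood at 14.1 ± 0.835 CPM at 8 h, against 14.1 ± 0.870 CPM in the control.

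MLP28 (evm.TU.Ft4.2488) had its low point at 4 h, with 9.06 ± 1.22 CPM in the control, 10.97 ± 1.6 at 2 h, 1.59 ± 0.251 at 4 h and 7.35 ± 0.767 CPM at 8 h. The gene was 6.90-fold lower at 4 h than at 2 h (log2 -2.79, SE 0.152, adjusted p = 1.53e-18), and its log2 rise from 4 h to 8 h was 2.21 (SE 0.156, adjusted p = 1.98e-15). Its difference at 8 h (log2 -0.30) lost its call without control replicate 1 (-0.19) or 8 h replicate 2 (-0.27) or 3 (-0.25) and with library-size scaling (-0.15). The call was also lost by limma on FPKM (-0.14 with 1 added, -0.15 with 0.1 added), and its libraries there overlapped the controls. MLP28 (evm.TU.Ft1.574) had 11, 33 and 12 reads in the control libraries, no read in the 6 libraries of 2 h and 4 h, and 5, 2 and 11 reads at 8 h. Against a floor of 3 reads over a group it was at least 18.0-fold lower at 2 h and at least 17.0-fold lower at 4 h, and at 8 h it was at least 5.31-fold above 4 h. Its call at 8 h (log2 -1.63) was lost without control replicate 2 (-0.95), without 8 h replicate 1 (-1.49) or 2 (-1.28) and by DESeq2. The gene reached the count minimum through the control libraries and a single library of 8 h. Its lower levels against the control are therefore a description.

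The first and the last step of the series share no library, so they can be set against each other. Of the 17 genes lower at 2 h than in the control, 9 rose from 4 h to 8 h, or 7 of 15 without the pair picked for its fall, and 38.8% of all genes lower at 2 h did so. Another 5 fell further and 3 were not called. The 17 and the 15 include evm.TU.Ft1.574 and evm.TU.Ft4.2609, which reached the count minimum mainly through the control. The first of these is also among the 9 and the 7. Of the 4 genes called higher at 2 h, 3 rose from 4 h to 8 h (26.1% of all genes higher at 2 h), but for MLP34 (evm.TU.Ft1.2503) and MLP28 (evm.TU.Ft4.2488) the call at 2 h was lost by DESeq2 and without single libraries. The 2 genes without a call at 2 h, MLP28 (evm.TU.Ft4.3922) and MLP28 (evm.TU.Ft4.3924), both rose in the last step.

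**Figure D4:**
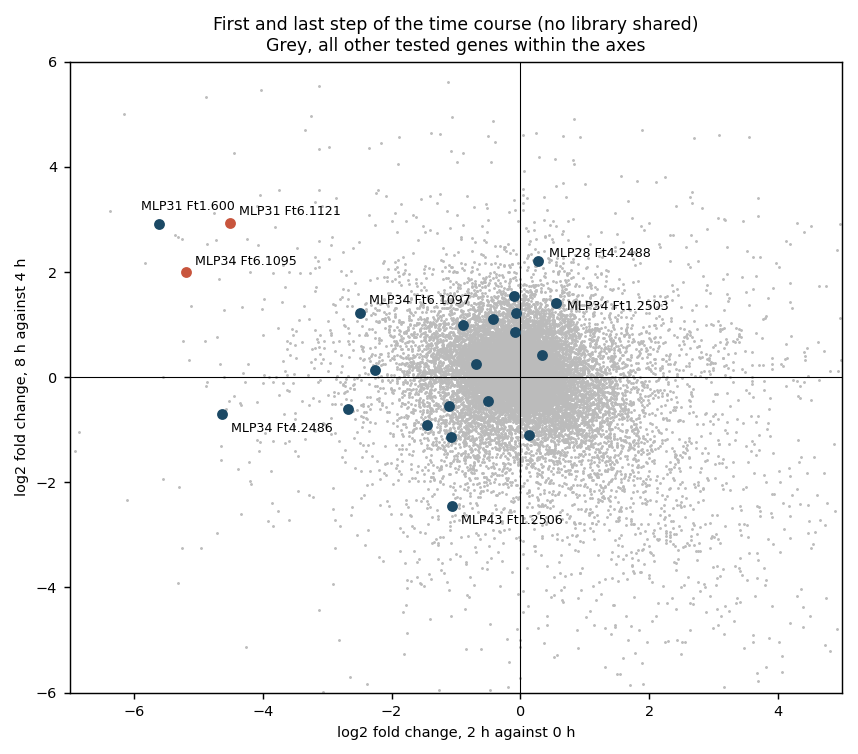
Log2 fold change of 2 h against 0 h (x axis) and of 8 h against 4 h (y axis). Large points are 22 of the 23 genes, red for MLP34 Ft6.1095 and MLP31 Ft6.1121; MLP28 Ft1.574, at 0 at 2 h and 4 h, is not drawn. Small grey points are the other tested genes; MLP34 Ft6.1095, MLP31 Ft6.1121 and MLP31 Ft1.600 lie at the upper left, with a fall at 2 h followed by log2 rises of 2.00, 2.94 and 2.90.

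Grouped by identifier after the values were seen, the 5 genes from Ft6.1095 to Ft6.1125 were all lower at 2 h (31.7% of all genes) and all rose from 4 h to 8 h (33.8%). The pair picked for its fall at 2 h is among them, and the others were evm.TU.Ft6.1097, evm.TU.Ft6.1100 and evm.TU.Ft6.1125. Among the 6 genes from Ft1.2503 to Ft1.2510, 5 were lower at 2 h and 4 fell further from 4 h to 8 h (31.7% of all genes fell in that step). The 2 that rose in it (33.8% of all genes) were MLP34 (evm.TU.Ft1.2503) and MLP28 (evm.TU.Ft1.2505). The 5 genes from Ft4.2484 to Ft4.2609 were all lower than the control at 4 h (37.7% of all genes) and at 8 h (34.5%). The call of evm.TU.Ft4.2488 at 8 h was lost in some settings, and evm.TU.Ft4.2609 reached the count minimum mainly through the control. Of the 3 genes from Ft1.574 to Ft1.602, 2 were lower and 1 higher at 2 h (31.7% and 31.6% of all genes). All 3 rose from 4 h to 8 h (33.8%). Here evm.TU.Ft1.574 reached the count minimum mainly through the control. Neither of the 2 genes Ft4.3922 and Ft4.3924 was called at 2 h, and both rose from 4 h to 8 h. Close numbers were not checked to be neighbours on the chromosome.

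Relatives of the family were read from text lists. The list of other Bet v 1 fold proteins held 4 genes, of which 3 were tested. Kirola (evm.TU.Ft6.1094), named after an MLP-type allergen of kiwifruit and numbered next to MLP34 (evm.TU.Ft6.1095), had 230, 173 and 121 reads in the control libraries, 0, 1 and 0 at 2 h, 3, 0 and 0 at 4 h, and 7, 8 and 2 at 8 h. It was lower at 2, 4 and 8 h. Only the control libraries held 10 or more of its reads, so it passed the filter through the group where it was high. Its values are therefore a description, without a test. The gene annotated as major allergen Pru ar 1 (evm.TU.Ft3.3930), a PR-10 type protein, took another course, from 189 ± 18.3 CPM to 283 ± 10.54 at 2 h, 583 ± 5.32 at 4 h and 124 ± 10.3 CPM at 8 h (adjusted p = 2.89e-13, 1.60e-27 and 1.09e-13). STH-2 (evm.TU.Ft1.1322) also had its highest mean at 4 h, with 3.03 ± 1.03 CPM against 0.437 ± 0.122 CPM in the control (adjusted p = 5.09e-09).

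The ABA receptors share the Bet v 1 fold. Of 11 tested receptor genes, 3 were higher and 7 lower at 2 h, 3 and 6 at 4 h, and 2 and 8 at 8 h. Over all genes, 31.6% were higher and 31.7% lower at 2 h, 35.1% and 37.7% at 4 h, and 36.4% and 34.5% at 8 h. The receptors had median log2 fold changes of -0.65, -0.53 and -1.74. The 3 receptors with the smallest p against the control are named as a description, and they do not stand for the list. PYL8 (evm.TU.Ft5.954) rose from 11.5 ± 1.11 to 132 ± 2.06 CPM at 8 h and a PYL1 gene (evm.TU.Ft6.1763) from 11.7 ± 0.660 to 139 ± 3.91 CPM. Another PYL1 gene (evm.TU.Ft4.3428) fell from 131 ± 4.09 to 47.4 ± 2.89 CPM. Other pathogenesis-related and thaumatin-like proteins had 17 of 30 tested genes higher and 5 lower at 2 h, 18 and 6 at 4 h, and 15 and 8 at 8 h, to be read beside the same shares of all genes, with medians of 0.94, 1.55 and 0.40. Genes named from this list were picked in the same way. The thaumatin-like gene TL1 (evm.TU.Ft3.106) went from 22.5 ± 0.732 to 2550.3 ± 148 CPM at 4 h and 15.6 ± 0.218 CPM at 8 h. A second TL1 gene (evm.TU.Ft3.104) and a PR-4A gene (evm.TU.Ft8.4842) also had their highest mean at 4 h, at 632.5 ± 51.4 and 1012 ± 9.79 CPM. At 4 h, none of the 23 major latex-like protein genes had its highest group mean, a count that was not made over all genes.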

How the data were processed

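The authors deposited a table of raw read counts per gene, whole numbers for 26750 genes in 12 libraries. The FPKM come from the authors too, and they imply coding lengths that are all multiples of 3. Per the submitters' processing notes, the tools were fastp, HISAT2, HTSeq and DESeq2, with no role or version. The genome build and counting settings are not given in the sources used here, so strand and reads shared between copies were not checked.

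All libraries entered a single edgeR quasi-likelihood model (edgeR 4.0.16 with limma 3.58.1 under R 4.3.3), scaled by TMM. Filtering by expression (minimum count 10, minimum total 15) left 22063 genes. In each comparison p-values were adjusted by Benjamini-Hochberg over these genes, and a call is an adjusted p under 0.05. CPM are counts relative to the TMM-scaled library size. Errors are SDs over 3 libraries. SEs were derived from the test, as the absolute log2 fold change divided by the square root of its F statistic. For fold bounds, a group without a read was set to 3 reads over its libraries, while the tests used the counts unchanged. The code was tested on simulated data.

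Alternatives were DESeq2 (1.42.0), its size factors in edgeR, no filter, a filter of 1 CPM in 3 libraries, limma on log2 FPKM (with 1 or 0.1 added), a replicate block, a fit to the compared libraries alone, a minimum of 2-fold, and each library left out in turn. Library-size scaling was added after the data were seen.

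Every gene of the family is named. Values in all libraries are printed for the picked pair and the 8 further genes of highest mean CPM, and for others where single libraries decide a call. Genes outside the family were the 5 nearest in course and up to 3 per list with the smallest p. Accidental text matches were removed by description. Genes and lists were chosen with earlier results of these data known. Figures were drawn with Python 3.11.15 and matplotlib 3.10.9.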

Additional observations from a re-analysis of the deposited data

Results flagged for a closer look

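In 6 genes of the family the calls at 2 h and at 8 h against the control had opposite directions. The share of all genes with opposite calls was not computed, so this count is not a trait of the family. The genes were singled out by these calls from the same libraries, so the log2 differences between 8 h and 2 h are a description and no test is given. MLP31 (evm.TU.Ft6.1121) went from a log2 fold change of -4.52 to 0.99, a difference of 5.50, and had been picked for its fall at 2 h. The difference was 1.82 for MLP31 (evm.TU.Ft6.1100, from -0.89 to 0.93), 1.81 for MLP28 (evm.TU.Ft1.2505, from -0.43 to 1.38) and 1.31 for MLP423 (evm.TU.Ft6.10, from -0.09 to 1.21). It was -1.87 for MLP423 (evm.TU.Ft4.954, from 0.14 to -1.73) and -0.58 for MLP28 (evm.TU.Ft4.2488, from 0.28 to -0.30). The 2 h calls of evm.TU.Ft6.10, evm.TU.Ft4.954 and evm.TU.Ft4.2488 were each lost when single libraries were left out.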

How the results depend on the processing

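Of 101 calls of the 23 genes in 5 comparisons, 92 held under all 21 alternatives (other than the 2-fold minimum) in which the gene was tested, 9 were lost under at least 1, and none of the 101 changed direction. The genes higher at 2 h numbered 4, and 1 by DESeq2, 2 by limma with 0.1 added to FPKM and 2 to 4 when single libraries were left out. With a 2-fold minimum as well, they numbered 0 at 2 h and 0 at 4 h, the rises from 2 h to 4 h 3, the falls in that step 2, and the falls from 4 h to 8 h 3. The replicate numbers did not pair the libraries (correlations of deviations between -0.0531 and 0.0522), and with the replicate block the genes lower at 2 h again numbered 17 and no call changed. Library-size scaling shifted the median of all genes by 0.15 at 8 h against 0 h and by 0.22 for 8 h against 4 h.

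Log2 fold changes that were not called changed sign in some settings, and the cause was not tested. From 2 h to 4 h, evm.TU.Ft1.2507 gave -0.0068 by limma with 1 added, -0.0070 with 0.1 added and -0.012 by library-size scaling, and evm.TU.Ft6.1125 gave -0.054, -0.054 and -0.057 in the same order. At 8 h against 0 h, evm.TU.Ft6.1097 gave 0.14, 0.15 and 0.15 in the same order of settings. With single libraries left out, the values from 2 h to 4 h ran from -0.022 to 0.13 for evm.TU.Ft1.2507, from -0.35 to 0.37 for evm.TU.Ft1.600 and from -0.028 to 0.0647 for evm.TU.Ft6.1125. Those from 4 h to 8 h ran from -0.15 to 0.40 for evm.TU.Ft4.2484 and from -1.02 to 0.011 for evm.TU.Ft4.2609. At 2 h against 0 h they ran from -0.25 to 0.056 for evm.TU.Ft4.3922 and from -0.226 to 0.10 for evm.TU.Ft4.3924, and at 8 h against 0 h from -0.0468 to 0.043 for evm.TU.Ft6.1097.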
